A study of Mus musculus with 19 samples.

Results

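The T cell receptor of an alpha-beta T cell is built from variable, joining and constant gene segments, and the 165 variable segments of the alpha and beta chains are described here across 19 RNA-seq libraries of mouse CD8 T cells. They were chosen by symbol, as every row of the count tables whose name starts with Trav or Trbv followed by a digit, which gave 130 Trav rows and 35 Trbv rows of 53656 rows in all. The rule itself uses no measured value. Levels are given as CPM, in which the count of a row is scaled to all counts assigned to genes in the same library, or as CPM per kilobase of exon where different rows are compared.

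All libraries came from C57BL/6 mice whose CD8 T cells carry a transgenic receptor, either TCR SV40-I or TCR OT-I. The former recognises an epitope of SV40 large T antigen and the latter an epitope of ovalbumin. Of the 7 groups, SV40-I naive cells were sorted as CD8 and CD44low (3 libraries). SV40-I cells taken from malignant liver lesions at days 8 to 9 were sorted as CD8+ and Thy1.1+ and, by PD1, LAG3 and CD39, into a marker-low group (3 libraries) and a marker-high group (3 libraries). SV40-I cells sorted as CD8 and Thy1.1 (3 libraries) and OT-I cells sorted as CD8 and Ly5.1 (3 libraries) came from such lesions at days 20 to 21. The cultured groups were naive SV40-I cells stimulated through CD3 and CD28, transduced by retrovirus with GFP alone (2 libraries) or TOX-GFP (2 libraries), grown in IL-2 and sorted as CD8+ and GFP+. The source field of every library reads splenocytes, also for the lesion groups, and the count columns of the marker-high and marker-low libraries are headed WT and KO although no label gives a genotype. The labels do not say how the transgenes are driven, whether hosts kept their own T cells, or whether each replicate came from its own animal or culture, and p-values therefore reflect only how these libraries varied, which may be technical.

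In a developing thymocyte, recombination joins a Trbv segment to a diversity and a joining segment, and later a Trav segment to a Traj segment, in front of the constant genes Trbc1, Trbc2 and Trac. A productive beta chain stops further rearrangement of the other beta allele, whereas alpha rearrangement continues and can leave a T cell with more than a single alpha chain, so cells of a receptor-transgenic mouse can still carry endogenous alpha chains. The OT-I receptor is known to use a V alpha 2 chain, whose family is Trav14, and a V beta 5 chain, whose family is Trbv12. RefSeq (GRCm38.p6) lists Trbv29 under the older name Tcrb-V7, Trbv12-1 under Tcrb-V5.2 and Trbv12-2 under Tcrb-V5.1.

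The segments on which the results turn are shown by the last 280 coding bases of each, 5′ to 3′ on the plus strand, from GENCODE transcripts on GRCm38. Capitals mark bases that lie in at least 1 stretch of 50 bases, the length of a read, that no transcript of another gene holds; lower case marks bases that lie only in stretches another gene shares. Trbv29 (chr6:41271602-41271881) and Trav9-2 (chr14:53591235-53591514) led the SV40-I libraries, and Trbv12-1 (chr6:41113788-41114067) led the OT-I libraries. Trbv12-2 (chr6:41119085-41119364) was the next beta row in SV40-I cells, and Trav14n-3 (chr14:53370296-53370575) was high in the marker-low group. Trav14d-1 (chr14:52855887-52856166) stands for the Trav14 rows that had no count.
Trbv29: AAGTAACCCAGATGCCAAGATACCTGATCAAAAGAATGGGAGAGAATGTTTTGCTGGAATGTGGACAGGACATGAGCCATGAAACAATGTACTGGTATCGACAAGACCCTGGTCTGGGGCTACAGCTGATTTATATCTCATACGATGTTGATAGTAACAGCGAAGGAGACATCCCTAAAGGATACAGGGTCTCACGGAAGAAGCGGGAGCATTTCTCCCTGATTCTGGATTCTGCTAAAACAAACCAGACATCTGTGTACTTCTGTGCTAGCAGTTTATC
Trav9-2: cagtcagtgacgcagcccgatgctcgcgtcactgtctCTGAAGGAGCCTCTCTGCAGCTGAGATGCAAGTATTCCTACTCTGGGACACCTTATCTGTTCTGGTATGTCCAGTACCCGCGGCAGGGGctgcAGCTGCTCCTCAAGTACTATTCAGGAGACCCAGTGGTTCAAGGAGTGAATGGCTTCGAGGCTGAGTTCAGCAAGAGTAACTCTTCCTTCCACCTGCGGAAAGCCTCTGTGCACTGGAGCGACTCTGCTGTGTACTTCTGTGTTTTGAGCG
Trbv12-1: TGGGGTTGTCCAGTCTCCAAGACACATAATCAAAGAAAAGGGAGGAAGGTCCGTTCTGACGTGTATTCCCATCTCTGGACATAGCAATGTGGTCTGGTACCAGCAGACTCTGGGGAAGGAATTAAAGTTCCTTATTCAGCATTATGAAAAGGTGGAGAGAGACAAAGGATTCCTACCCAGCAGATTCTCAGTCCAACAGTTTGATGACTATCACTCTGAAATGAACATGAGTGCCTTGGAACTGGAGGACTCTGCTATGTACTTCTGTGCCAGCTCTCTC
Trbv12-2: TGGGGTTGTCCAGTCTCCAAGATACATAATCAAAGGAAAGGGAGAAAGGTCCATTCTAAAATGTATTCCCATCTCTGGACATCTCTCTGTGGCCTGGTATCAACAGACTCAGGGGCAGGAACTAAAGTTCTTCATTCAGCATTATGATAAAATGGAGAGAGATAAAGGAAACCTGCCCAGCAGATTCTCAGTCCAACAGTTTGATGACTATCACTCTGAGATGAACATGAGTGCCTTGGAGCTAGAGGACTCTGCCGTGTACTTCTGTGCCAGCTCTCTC
Trav14n-3: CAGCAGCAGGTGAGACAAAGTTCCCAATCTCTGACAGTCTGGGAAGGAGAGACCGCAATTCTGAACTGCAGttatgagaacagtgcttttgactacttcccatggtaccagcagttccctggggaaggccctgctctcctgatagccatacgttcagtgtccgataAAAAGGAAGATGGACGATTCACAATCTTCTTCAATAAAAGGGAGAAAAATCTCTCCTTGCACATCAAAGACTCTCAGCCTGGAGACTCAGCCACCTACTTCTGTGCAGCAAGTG
Trav14d-1: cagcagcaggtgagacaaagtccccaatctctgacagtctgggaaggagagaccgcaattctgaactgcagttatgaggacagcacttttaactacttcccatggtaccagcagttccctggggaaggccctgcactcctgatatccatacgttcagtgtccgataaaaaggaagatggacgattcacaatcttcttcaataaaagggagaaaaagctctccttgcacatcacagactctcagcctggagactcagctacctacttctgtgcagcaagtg
Over their whole coding parts, Trbv12-1 and Trbv12-2 were identical at 328 of 372 bases (88.2%), and Trav14n-3 and Trav14d-1 at 345 of 364 aligned columns (94.8%). Trav14d-1 and Trav14n-1 were identical at 364 of 364 bases. Trbv29 and Trbv12-2 shared 186 of 377 aligned columns (49.3%).

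Library totals ran from 37006508 to 54195918 counts, and where a row had no count the level could still be up to 0.0554 to 0.0811 CPM (3 counts), a limit for counting error only. The defining markers Cd8a and Cd3e stood at 1106 and 553 CPM or more in all libraries. Summed over 6 macrophage markers, marker-low library 2 stood at 8540 CPM beside 1900 and 730 CPM in marker-low libraries 1 and 3, while the marker-high libraries held 3935 to 5571, the naive libraries 101 to 262 and the cultured libraries 3.83 to 7.35 CPM. Of the 7 hepatocyte markers, the sum was 1227 CPM in day 20 to 21 SV40-I library 2 and 877 and 1466 CPM in OT-I libraries 2 and 3, and no more than 41.6 CPM elsewhere. The 5 erythroid markers summed to 1288 to 3602 CPM in OT-I, 98.8 to 781 in SV40-I cells of days 20 to 21, 28.7 to 292 in naive and 101 to 1364 CPM in the groups of days 8 to 9. The 3 NK cell markers stood at 326 to 652 CPM in both groups of days 20 to 21 and 6.24 to 12.8 CPM in naive cells, and the 4 neutrophil markers at 1703 CPM in marker-low library 2 and at most 425 CPM elsewhere. The 6 B cell markers summed to 2735 to 3051 CPM in naive, 1472 to 2142 at days 8 to 9, 1185 to 1636 in SV40-I and 644 to 744 in OT-I cells of days 20 to 21 and 381 to 773 CPM in culture, and to 2.28 to 147 CPM without Ighm. The part of these transcripts in the segment levels was not tested. In such bulk samples fewer cells of a type and less RNA per cell cannot be told apart.

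Trbv29, a beta variable segment (chromosome 6, 41271394 to 41271881, 2 exons), was the highest of the 165 rows in each SV40-I library. It stood at 1909, 6265 and 3200 CPM in the naive libraries, at 4001, 1308 and 3402 in the marker-low, at 2173, 2306 and 2189 in the marker-high and at 3098, 3922 and 2632 in the libraries of days 20 to 21. In culture it stood at 1037 and 2142 CPM with GFP and at 698 and 1293 CPM with TOX-GFP. In OT-I cells it stood at 2.19, 2.24 and 2.23 CPM. The naive, marker-low, marker-high and day 20 to 21 groups overlapped with each other except for the day 20 to 21 libraries, which all lay above the marker-high ones, and every SV40-I library lay above every OT-I library. Of all Trbv counts, Trbv29 took 97.8 to 99.1% in the SV40-I libraries.

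**Figure D1:**
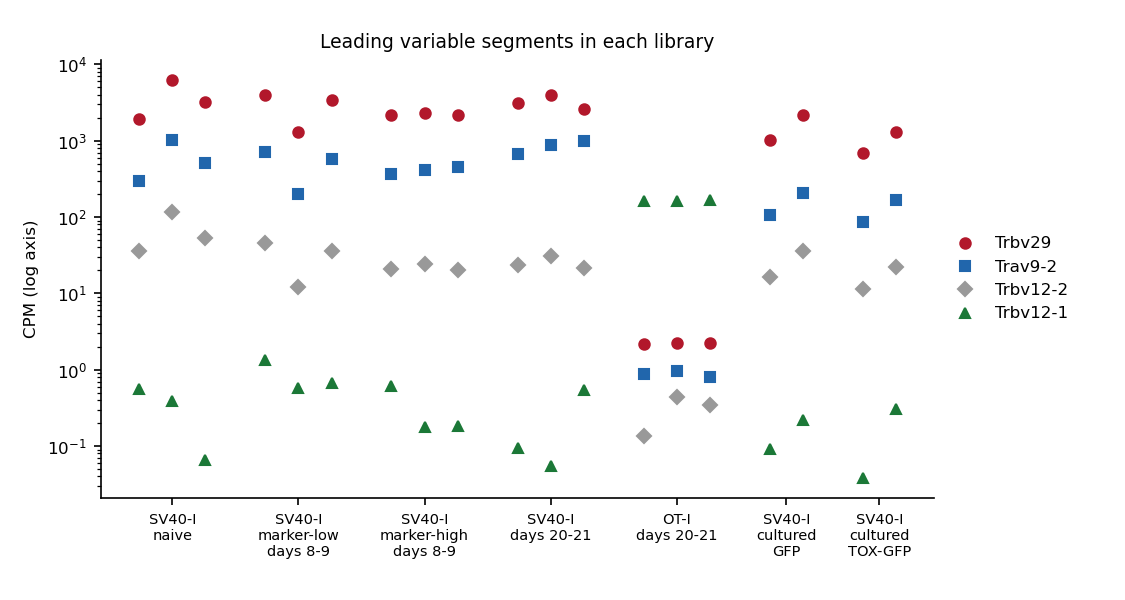
CPM of Trbv29, Trav9-2, Trbv12-2 and Trbv12-1 (log axis) in each of the 19 libraries, 1 point per library and segment, grouped by cell state. Trbv29 lies between 698 and 6265 CPM in SV40-I libraries and near 2.2 CPM in OT-I libraries, where Trbv12-1 lies between 163 and 168 CPM.

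Against OT-I cells, 5 of the 75 segments that passed the filter on low counts were called higher in SV40-I cells of days 20 to 21 and 1 lower, by edgeR's quasi-likelihood test at a Benjamini-Hochberg adjusted p under 0.05 over all genes. Of all 16404 genes tested, 4.91% were called higher and 4.11% lower. The 90 segments that did not pass stayed below 0.929 CPM at their highest (Trbv14), 49 of them with no count in any library. Trbv29 was higher by 10.55 ± 0.62 on the log2 scale (SE, adjusted p = 3.91e-06, n = 3 each), and Trbv12-1 was lower by 9.41 ± 1.01 (adjusted p = 9.63e-05). Trbv12-1, the V beta 5 family member (chromosome 6, 41113550 to 41114067), held 96.7 to 97.9% of the Trbv counts of OT-I cells, while the same row took at most 0.0434% in an SV40-I library. These groups carry different receptors and also differ in activation genes (Pdcd1 at 3145 to 5253 CPM in SV40-I and 81.1 to 122 CPM in OT-I cells), and within this comparison alone receptor and state cannot be told apart. Over the naive, lesion and cultured states of SV40-I cells, Trbv29 ranged from 698 to 6265 CPM, against 2.19 to 2.24 CPM in OT-I cells, and Trbv12-1 reached at most 1.36 CPM, against 163 to 168 CPM.

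Within SV40-I cells Trbv29 did not pass the test in any ex vivo comparison. Its log2 difference from naive cells was -0.17 ± 0.41 at days 20 to 21, -0.75 ± 0.41 for the marker-high and -0.32 ± 0.41 for the marker-low group (SE, edgeR adjusted p = 0.817, 0.202 and 0.627, n = 3 each). Naive library 2, at 6265 CPM, lay 1.57 times above the next highest library. Without it the difference at days 20 to 21 was 0.42 and that of marker-low cells 0.26, so both directions turned. Relative to the constant genes, on the scale of CPM per kilobase, Trbv29 stood at 1.18 to 1.47 times the sum of Trbc1 and Trbc2 in naive, 1.099 to 1.14 in marker-low, 1.02 to 1.11 in marker-high and 0.828 to 1.11 in day 20 to 21 libraries. Among the ex vivo SV40-I libraries the naive ones thus lay highest by this ratio, while the cultured libraries, at 0.967 to 1.24, overlapped with them. In OT-I cells the same ratio of Trbv12-1 was 0.312 to 0.318.

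Trbv12-2, a sister of the OT-I segment (chromosome 6, 41118851 to 41119364), was the second beta row in SV40-I cells. It stood at 35.4, 116 and 53.5 CPM in naive, 45.4, 12.0 and 35.4 in marker-low, 20.7, 24.1 and 20.5 in marker-high and 23.5, 31.0 and 21.6 CPM in day 20 to 21 libraries. In OT-I cells it stood at 0.136, 0.432 and 0.340 CPM. All naive libraries were above all marker-high and day 20 to 21 libraries, and the OT-I libraries were below all others. It was higher in SV40-I than in OT-I cells by 6.46 ± 0.65 (edgeR adjusted p = 6.29e-05).

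Read as a percentage of Trbv29 counts in the same library, Trbv12-2 was 1.86, 1.86 and 1.67% in naive cells and 1.14, 0.916 and 1.04% in marker-low cells. It was 0.953, 1.05 and 0.938% in marker-high cells and 0.760, 0.790 and 0.819% at days 20 to 21. The cultured libraries held 1.59 and 1.66% with GFP and 1.61 and 1.69% with TOX-GFP. The 3 naive libraries lay above the 9 lesion libraries, and day 20 to 21 libraries lay below both groups of days 8 to 9, although Trbv29 itself overlapped between naive and lesion cells. The difference from naive cells was -1.005 percentage points at days 20 to 21, -0.816 for the marker-high and -0.764 for the marker-low group. Each had an exact permutation p of 0.10 (two-sided, adjusted p = 0.18 over 9 such tests, n = 3 each), the smallest p that 3 against 3 libraries can give. This ratio was chosen after its values were seen.

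**Figure D2:**
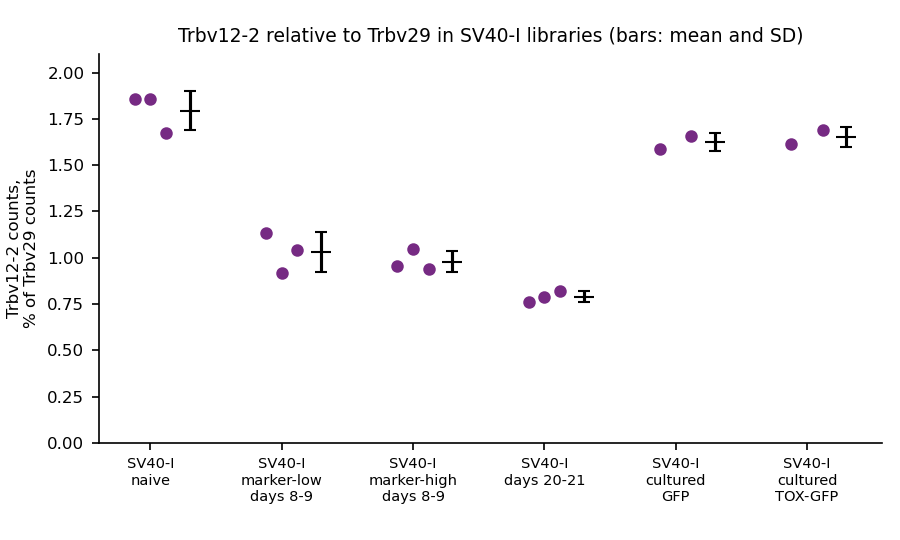
Trbv12-2 counts as a percentage of Trbv29 counts (y axis) in the SV40-I libraries, 1 point per library, with the mean and SD of each group beside them. Naive libraries lie at 1.67 to 1.86%, cultured ones at 1.59 to 1.69% and those of days 20 to 21 at 0.760 to 0.819%.

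Among the other beta rows, Trbv13-1 (chromosome 6, 41116007 to 41116468), which lies between Trbv12-1 and Trbv12-2, was at 1.51 to 3.86 CPM in naive cells and 4.58 to 7.51 CPM at days 20 to 21. In OT-I cells it was at 0, 0.0540 and 0.149 CPM, and it was higher in SV40-I cells of days 20 to 21 by 6.43 ± 0.91 (edgeR adjusted p = 0.00071). Trbv13-2, Trbv19, Trbv16, Trbv31 and Trbv1, the other beta rows among the leading 5 of a group, stayed at or below 4.79 CPM in all 19 libraries. The beta rows other than Trbv29, Trbv12-1 and Trbv12-2 summed to 12.1 to 23.5 CPM in marker-low, 6.41 to 9.20 in marker-high, 5.98 to 9.90 in naive and 2.51 to 3.11 CPM in cultured libraries. The marker-low libraries lay above the naive, marker-high and cultured ones, while 1 of the 3 day 20 to 21 libraries, at 14.3 CPM, fell within their range.

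Trav9-2 (chromosome 14, 53590857 to 53591514) was the leading alpha segment of SV40-I cells. It stood at 298, 1025 and 512 CPM in naive, 708, 203 and 574 in marker-low, 364, 407 and 448 in marker-high and 669, 890 and 1002 CPM in day 20 to 21 libraries. The cultured libraries held 106 and 209 CPM with GFP and 87.4 and 168 CPM with TOX-GFP, and the OT-I libraries 0.882, 0.973 and 0.808 CPM. The day 20 to 21 libraries lay above the marker-high ones, the other ex vivo SV40-I groups overlapped, and the OT-I libraries lay far below all others. Against OT-I cells the difference was 9.97 ± 0.65 on the log2 scale (edgeR adjusted p = 3.91e-06, n = 3 each).

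Across activation states Trav9-2 differed from naive cells by 0.55 ± 0.44 at days 20 to 21, -0.57 ± 0.44 for the marker-high and -0.24 ± 0.44 for the marker-low group (SE, edgeR adjusted p = 0.414, 0.371 and 0.749), so no difference passed. Without naive library 2 the marker-high value was 0.046 and the marker-low value 0.37. Without marker-low library 2, the macrophage-rich one, the marker-low value was 0.081, and its marker sum was not tested as a part of this. On the CPM per kilobase scale Trav9-2 averaged 1086 ± 663 in naive cells (SD, n = 3), where Trbv29 averaged 10741 ± 6339. Trav9-2 stood at 0.120 to 0.306 times Trac per kilobase in SV40-I libraries. Of the 50-base windows of Trav9-2, 46.7% also occur in another gene, and of those of Trbv29 none do.

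Of all Trav counts, Trav9-2 took 78.6 to 88.1% in naive, 71.5 to 77.6% in marker-low, 72.8 to 85.3% in marker-high and 88.8 to 91.3% in day 20 to 21 libraries. The naive libraries lay above the marker-low and below the day 20 to 21 ones, each with an exact permutation p of 0.10 (two-sided, adjusted p = 0.18, n = 3 each). They overlapped with the marker-high ones (exact permutation p = 0.20, adjusted p = 0.257). Tests of this share were not among those planned. The cultured libraries ranged from 67.5 to 81.4% and the OT-I libraries from 1.43 to 1.85%.

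In OT-I cells no alpha segment stood out as Trav9-2 did in SV40-I cells. Trav21-dv12 (chromosome 14, 53875984 to 53876752), which lies near the 3′ end of the alpha locus and can also be used by delta chains, led with 7.87, 7.30 and 7.32 CPM. Its level lay within the range of 5.25 to 10.3 CPM of naive SV40-I cells. It lay above the 3.79, 4.63 and 4.87 CPM of SV40-I cells of days 20 to 21, although it was not among the segments called there. On the CPM per kilobase scale it averaged 20.8 ± 0.912 (SD, n = 3), followed by Trav17 at 13.3 ± 3.58, Trav3-3 at 10.3 ± 2.20, Trav8-2 at 9.94 ± 1.12 and Trav19 at 9.00 ± 1.85, beside 424 ± 6.45 for Trbv12-1. The alpha rows summed to 0.0900 to 0.109 times Trac on the per-kilobase scale in OT-I cells and to 0.176 to 0.379 times in SV40-I cells.

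The Trav14 family, to which the V alpha 2 chain of OT-I belongs, has 9 rows. In the OT-I libraries the 9 rows together stood at 6.67, 3.49 and 4.74 CPM. These levels lay below the 14.2 to 32.0 CPM of the naive and the 19.6 to 59.0 CPM of the marker-low SV40-I libraries. They lay within the range of the SV40-I lesion libraries of the same days, at 3.46, 27.1 and 1.82 CPM. The marker-high libraries, at 5.02, 31.6 and 2.65 CPM, and the cultured ones, at 5.50 to 9.40 CPM, overlapped with the OT-I libraries. By their mean over the OT-I libraries, the highest of the 9 rows were Trav14-1 at 2.44, 1.32 and 1.98 CPM and Trav14-3 at 3.12, 1.00 and 0.936 CPM. In OT-I library 3, Trav14-2 had 73 counts, above the 44 of Trav14-3. Trav14d-1, Trav14n-1, Trav14d-2 and Trav14n-2 had no count in any of the 19 libraries. Every 50-base window of these 4 rows also occurs in another gene, Trav14d-1 pairing with Trav14n-1 and Trav14d-2 with Trav14n-2, as the lower case line of Trav14d-1 shows. Whether OT-I reads were lost in this way was not tested.

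Alpha segments other than Trav9-2 had counts in every library. Their sum was 81.1, 157 and 69.3 CPM in naive, 204, 81.2 and 207 in marker-low, 136, 145 and 77.4 in marker-high and 63.4, 112 and 112 CPM in day 20 to 21 libraries. It was 60.7, 51.7 and 53.99 CPM in OT-I, 50.2 and 55.9 with GFP and 42.1 and 38.4 CPM with TOX-GFP. The 4 ex vivo SV40-I groups overlapped, and the cultured and OT-I libraries lay below each of them. The differences of the lesion groups from naive cells had exact permutation p-values of 0.20 for marker-low, 0.90 for marker-high and 0.80 for day 20 to 21 libraries (two-sided, adjusted p = 0.257, 0.90 and 0.90). Tests of this sum were not among those planned. Between 42 and 75 Trav rows had a count in a library, the fewest in day 20 to 21 cells at 42 to 54 rows, beside 65 to 70 rows in naive cells.

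The leading row of that remainder was the same in all libraries of some groups and differed in others. In OT-I cells it was Trav21-dv12 each time and in naive cells Trav14-1, at 9.59, 17.8 and 10.3 CPM, or 11.4 to 14.9% of the remainder. At days 20 to 21 it was Trav17 in library 1 with 10.0%, Trav14-3 in library 2 with 21.5% and Trav7-1 in library 3 with 35.3%. In marker-high cells it was Trav3-3, Trav14-1 and Trav17, with 14.7, 17.8 and 26.8%. The effective number of segments, 1 over the sum of the squared shares of the remainder's counts, was 17.5 to 20.9 in naive, 10.0 to 12.4 in marker-high and 21.4, 9.93 and 6.25 in day 20 to 21 libraries. Marker-high libraries all lay below naive ones, while library 1 of days 20 to 21 lay above them.

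**Figure D3:**
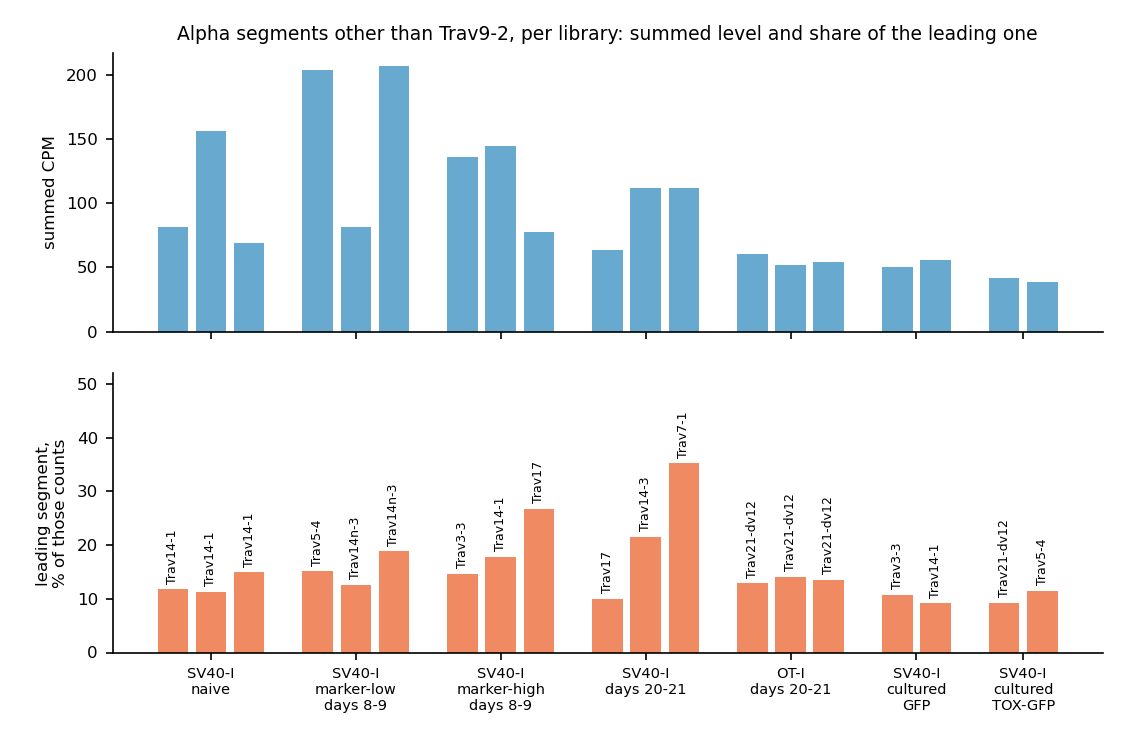
Alpha segments other than Trav9-2 in each library: their summed CPM (upper panel) and the share of their counts held by the leading one, named over each bar (lower panel). The share runs from 9.16% in a cultured library to 35.3% for Trav7-1 in library 3 of SV40-I cells at days 20 to 21.

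Within a group, single libraries carried single segments. Trav7-1 (chromosome 14, 52654817 to 52655328), which lies 1565 kb before Trac in the 5′ part of the locus, stood 59.7 times above its next highest library in library 3 of days 20 to 21. Trav7-6 reached 8.67 CPM in the same library and at most 2.05 CPM elsewhere. In library 2 of that group, Trav14-3 reached 24.1 CPM, beside 0.659 and 1.05 CPM in its 2 replicates, and Trav19 reached 19.1 CPM, beside 2.40 and 2.23 CPM. Trav3-4 reached 13.9 CPM in marker-low library 1 and at most 1.53 CPM elsewhere. Trav17 stood at 18.1 and 20.8 CPM in marker-high libraries 1 and 3 and at 2.02 CPM in library 2, where Trav14-1 stood at 25.8 CPM, beside 1.24 and 1.08 CPM. Each of these segments was thus high in 1 or 2 of the 3 libraries of the group named. Some were also high in other groups. Trav14-3 reached 8.14 CPM in marker-low library 1 and Trav19 12.2 CPM in marker-high library 1. Trav14-1 reached 17.8 CPM in naive library 2, and Trav17 reached 10.6 CPM at days 20 to 21.

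**Figure D4:**
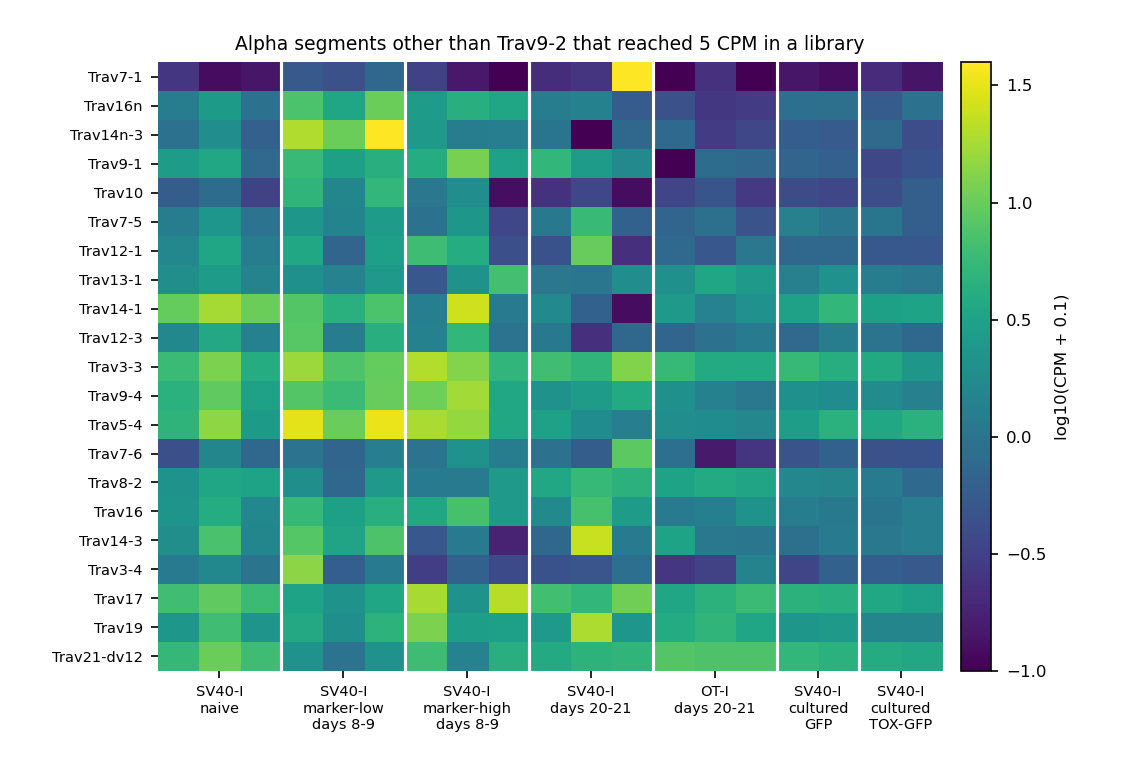
Level of the 21 alpha segments other than Trav9-2 that reached 5 CPM in a library, as log10(CPM + 0.1), with segments in the order of the locus (rows) and libraries by group (columns). Trav14n-3 and Trav5-4 are bright in all 3 marker-low libraries, and Trav7-1 in 1 library of days 20 to 21.

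Against naive cells, marker-low cells showed 3 segments called higher and 2 lower of 75 tested (edgeR adjusted p under 0.05; of all genes 10.6% were called higher and 6.21% lower). Trav14n-3 (chromosome 14, 53370077 to 53370575), a Trav14 member in the duplicated part of the locus, stood at 19.2, 10.3 and 39.1 CPM in marker-low and 0.833, 1.77 and 0.524 CPM in naive cells. It was between 0 and 2.37 CPM in the remaining 13 libraries, so the marker-low libraries lay above all others. Its log2 difference was 4.49 ± 1.15 (edgeR adjusted p = 0.0195). The call was lost without naive library 1 (0.0719), naive library 3 (0.0824) or marker-low library 3 (0.0562), those being edgeR adjusted p-values.

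Trav16n (chromosome 14, 53351028 to 53351621), which lies shortly before it in the same copy, stood at 7.21, 3.36 and 10.3 CPM in marker-low and 1.12, 2.50 and 0.851 CPM in naive cells, without overlap, a difference of 2.27 ± 0.62 (edgeR adjusted p = 0.0256). Trav6d-3 (chromosome 14, 52725299 to 52726919) had 114 counts over the marker-low and 1 over the naive libraries, a ratio of 119 with a 95% counting interval of 21.0 to 4746. It is the third row called higher, but it passed the filter on low counts only through the 3 marker-low libraries, so its call is not an independent test. The Trav16n call was lost without naive library 1 (edgeR adjusted p = 0.091) or 3 (0.103) or marker-low library 1 (0.0665) or 3 (0.0854).

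The segments lower in marker-low than in naive cells lie in the 3′ part of the alpha locus, towards the joining genes. Trav21-dv12 stood at 2.00, 0.878 and 2.05 CPM against 5.25, 10.3 and 6.02 CPM, lower by 2.07 ± 0.54 (edgeR adjusted p = 0.0216). Trav13-5 (chromosome 14, 53795357 to 53795963) stood at 0.620, 0.471 and 0.186 CPM against 1.84, 4.62 and 2.95 CPM, lower by 2.80 ± 0.82 (edgeR adjusted p = 0.033). Neither overlapped between the groups. Without the macrophage-rich marker-low library 2 the edgeR adjusted p was 0.0621 for Trav21-dv12 and 0.0746 for Trav13-5, and without naive library 2 it was 0.0772 and 0.0982. Trav13-5 also lost its call without naive library 3 (0.0744) and marker-low libraries 1 (0.06) and 3 (0.101).

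The share of the remainder's counts from the segments 3′ of Trav13-5, which are not duplicated, was 4.61 to 6.06% in marker-low cells. It was 17.5 to 22.4% in naive, 15.9 to 26.1% in day 20 to 21, 29.0 to 36.2% in OT-I and 21.1 to 25.5% in cultured cells. Marker-high libraries 1 and 3 held 27.4 and 36.7%, and library 2 held 4.36%. The marker-low libraries were thus below all others but marker-high library 2. The gamma-delta T cell markers, of which 9 of 12 were in the tables, summed to 270 to 312 CPM in naive, 20.7 to 34.2 in marker-low, 118 to 146 at days 20 to 21, 265 to 330 in OT-I and 310 to 342 CPM in cultured libraries. In marker-high libraries 1, 2 and 3 the sum was 37.01, 117 and 211 CPM. The sum was lowest in the marker-low libraries, and its relation to the share of these segments was not tested. Trdc, the delta constant gene, stood at 260 to 295 CPM in naive and 9.86 to 11.8 CPM in marker-low cells, and the part of such transcripts in the lower segments was not tested. Trav5-4 (chromosome 14, 53704007 to 53704514), 5′ of that stretch, stood at 30.9, 9.93 and 33.1 CPM in marker-low and 4.84, 14.1 and 2.51 CPM in naive cells, a difference of 1.83 ± 0.72 that did not pass (edgeR adjusted p = 0.0985).

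Marker-high cells showed 3 segments called lower than in naive cells and 0 higher of 75 tested (edgeR; of all genes 9.10% were called lower and 14.3% higher). Trav15-1-dv6-1 (chromosome 14, 53559632 to 53560247), a segment that alpha and delta chains can both use, stood at 0.555, 0.128 and 0.464 CPM against 4.69, 3.22 and 4.52 CPM. Trav13-5 stood at 0.302, 0.102 and 0.412 CPM against 1.84, 4.62 and 2.95 CPM. Neither overlapped between the groups, and the differences were -3.39 ± 0.79 and -3.48 ± 0.85 (edgeR adjusted p = 0.00874 and 0.0106). Both passed under each of the 12 alternatives that tested them, with adjusted p up to 0.0379 and 0.0485. Trbv12-2, the beta row described above, was lower by 1.63 ± 0.51 (edgeR adjusted p = 0.0365). Its call was lost without naive library 2 (0.184) or 3 (0.0544) and without any of the marker-high libraries (0.107, 0.0892 and 0.0856).

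Cells of days 20 to 21 showed 1 segment called higher than in naive cells and 5 lower of 75 tested (edgeR; of all genes 11.1% were called higher and 6.86% lower). The higher row, Trav7-1, was the segment of library 3 alone: its libraries held 0.118, 0.148 and 39.6 CPM, and without library 3 the log2 difference fell from 7.52 ± 2.26 to 0.89 (adjusted p = 0.772). It was also called against OT-I cells (8.33 ± 2.39, adjusted p = 0.0446), where without library 3 the value was 1.67 (adjusted p = 0.676). Without naive library 1, 2 or 3 its adjusted p against naive cells was 0.0781, 0.118 or 0.115, and without OT-I library 1, 2 or 3 that against OT-I cells was 0.141, 0.0895 or 0.148. DESeq2 called 9 segments between days 20 to 21 and naive cells (26.1% of all genes it tested), 5 in marker-high (31.5%) and 9 in marker-low (27.5%) against naive cells, 11 in SV40-I against OT-I (15.5%) and 14 in GFP against naive cells (39.5%).

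Of the lower rows at days 20 to 21, 3 had no count in any library of that group. Trav14d-3-dv8 (chromosome 14, 53078452 to 53079045) had 129 counts over the naive libraries, at 0.814, 1.36 and 0.546 CPM, and was at least 43.6-fold lower, with 3 counts over the group as its floor (edgeR adjusted p = 0.00866). Trav8d-2 (chromosome 14, 53042428 to 53042891) had 2, 37 and 8 counts in naive libraries 1, 2 and 3 and was at least 15.9-fold lower (adjusted p = 0.0174), a bound of 4.97 without naive library 2. Trav10n (chromosome 14, 53122114 to 53122610) had 28 naive counts and was at least 9.47-fold lower (adjusted p = 0.0417). Without library 2 or 3 of days 20 to 21, which lowers the depth behind the floor, the bounds were 27.3 and 29.1 for Trav14d-3-dv8, 9.96 and 10.6 for Trav8d-2 and 5.93 and 6.31 for Trav10n. Without the 3 libraries rich in hepatocyte transcripts, a choice made after seeing the data, their adjusted p-values were 0.0511, 0.0511 and 0.0994. Trav10n also lost its call without any single library of either group, with edgeR adjusted p from 0.0699 to 0.1.

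The other lower rows were Trav14-1 (chromosome 14, 53554022 to 53554558) and Trav15-1-dv6-1, its neighbour. Trav14-1 stood at 1.62, 0.535 and 0.0206 CPM at days 20 to 21 and 9.59, 17.8 and 10.3 CPM in naive cells, without overlap, and was lower by 4.03 ± 1.31 (edgeR adjusted p = 0.0495). Trav15-1-dv6-1 stood at 1.48, 0.517 and 0.186 CPM against 4.69, 3.22 and 4.52 CPM, lower by 2.41 ± 0.76 (edgeR adjusted p = 0.042). Leaving out naive library 1, 2 or 3 gave Trav14-1 adjusted p-values of 0.0774, 0.115 and 0.0807 and Trav15-1-dv6-1 0.0993, 0.0692 and 0.0943. Leaving out library 2 or 3 of days 20 to 21 gave 0.132 and 0.0942 for the former and 0.124 and 0.109 for the latter. Without the libraries rich in hepatocyte transcripts the edgeR adjusted p was 0.184 for Trav14-1 and 0.160 for Trav15-1-dv6-1. Trav7-1 was then the 1 segment called, beside 10.5% of all genes.

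Between marker-high and marker-low cells no segment of 75 was called by edgeR (1.19% of all genes were called), 10 had an unadjusted p under 0.05 and DESeq2 called 6 (4.56% of all genes it tested). Trav14n-3 differed by -3.87 ± 1.12 (edgeR adjusted p = 0.143), with 1.18 to 2.37 CPM in marker-high and 10.3 to 39.1 CPM in marker-low libraries, which did not overlap. Without marker-high library 2, edgeR called 1 segment of 82 (0.464% of all genes). Between days 20 to 21 and marker-high cells edgeR likewise called 0 of 75 (5.33% of all genes), 19 had an unadjusted p under 0.05 and DESeq2 called 11 (14.8% of all genes). Trav5-4 differed by -2.60 ± 0.75 (edgeR adjusted p = 0.0626), at 1.20 to 2.97 CPM against 3.43 to 18.5 CPM. Without marker-high library 3 edgeR called 4 segments of 83 (9.56% of all genes), and without library 1 of days 20 to 21 it called 1 of 84 (3.17% of all genes).

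In culture, cells with GFP alone showed 5 segments called lower and 0 higher than in naive cells, of 84 tested in a fit of all 19 libraries (edgeR; of all 18608 genes 32.6% were called, 2789 lower and 3268 higher). Trav9-2 fell by 2.34 ± 0.57 (adjusted p = 0.00491) and its libraries did not overlap with the naive ones. Trbv29 fell by 1.64 ± 0.51 (adjusted p = 0.023) and Trbv12-2 by 1.79 ± 0.61 (adjusted p = 0.0365), although the CPM of both overlapped between the groups. Trav9-4 (chromosome 14, 53676141 to 53676630) stood at 1.89 and 1.74 CPM against 4.48, 9.00 and 2.97 CPM (-1.99 ± 0.67, adjusted p = 0.0318). Trav8d-2 had no count with GFP and 47 in naive cells, 37 of them in library 2, and was at least 9.88-fold lower (adjusted p = 0.0189). That bound was 3.09 without naive library 2 and 5.02 or 4.86 without GFP library 1 or 2.

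Scaling by library totals alone moved the median of all genes in this comparison by 0.256 on the log2 scale. It left 2 segments called, beside 32.5% of all genes. The edgeR adjusted p-values were then 0.0651 for Trbv29, 0.0914 for Trbv12-2 and 0.0711 for Trav9-4. Without GFP library 1 no segment was called, the adjusted p being 0.0938 for Trav9-2, 0.273 for Trbv29, 0.326 for Trbv12-2, 0.169 for Trav9-4 and 0.108 for Trav8d-2. Without naive library 2, 2 segments were called, beside 28.9% of all genes. TOX-GFP against GFP gave 0 calls of 40 segments by edgeR (0% of 14614 genes were called), 1 unadjusted p under 0.05, and 0 by DESeq2, which called 4.15% of all genes. Trbv29 differed by -0.68 ± 0.41 and Trav9-2 by -0.31 ± 0.41 (SE, edgeR adjusted p = 0.535 and 0.803, n = 2 each).

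The constant and CD3 genes, which complete the receptor, gave a level against which the segments can be read. Of 9 such genes 5 were higher in SV40-I than in OT-I cells of days 20 to 21 and 0 lower. Of all genes, 4.91% were called higher and 4.11% lower. The median log2 difference of the 9 was 1.28, beside -0.04 over all genes. Trac, the alpha constant gene, stood at 7177 to 8648 CPM against 1394 to 1450 CPM (2.57 ± 0.27, edgeR adjusted p = 8.75e-05), and Trbc2, a beta constant gene, at 4703 to 6024 against 580 to 622 CPM (3.21 ± 0.44, adjusted p = 0.000576). Trbc1, its near-identical copy, stood at 822 to 1001 against 350 to 368 CPM (1.42 ± 0.34, adjusted p = 0.0194), and reads could be split between these copies. Cd3e was higher by 1.44 ± 0.18 and Cd8a, part of the co-receptor, by 1.28 ± 0.17, while Cd3d, Cd3g, Cd247 and Cd8b1 did not pass.

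From naive cells to days 20 to 21, Trac (0.94 ± 0.26, edgeR adjusted p = 0.0239) and Cd3e (0.98 ± 0.18, adjusted p = 0.00245) rose, while the zeta chain gene Cd247 (-0.72 ± 0.17, adjusted p = 0.00976) and the co-receptor gene Cd8b1 (-1.10 ± 0.21, adjusted p = 0.00264) fell. The median of the list was 0.26 beside 0.05 over all genes. Trbc1 and Trbc2 differed by 0.29 ± 0.33 and 0.26 ± 0.40, neither passing the test. In marker-high cells Cd247, Cd8b1 and Cd3d were lower than in naive cells and in marker-low cells Cd247, Cd8b1 and Cd8a, with medians of -0.42 and -0.51. In cultured GFP cells all 9 were lower than in naive cells (median -1.73 beside 0 over all genes). Of all 18608 genes tested there, 2789 were called lower and 3268 higher. Trav9-2 and Trbv29 were called lower in the same comparison.

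Among the alpha joining rows Traj49 led in each SV40-I group, with 11.1 to 30.2 CPM in naive, 11.6 to 18.02 in marker-low, 13.5 to 16.5 in marker-high and 22.0 to 34.9 CPM in day 20 to 21 libraries. It stood at 1.102 to 2.83 CPM in culture and 1.13 to 1.38 CPM in OT-I cells. Of 69 joining and diversity rows tested, 6 were higher in SV40-I than in OT-I cells and 0 lower (median 0.47). Of all genes, 4.91% were called higher and 4.11% lower. The alpha rows among the 6 were Traj49 (4.61 ± 0.41, edgeR adjusted p = 2.44e-05), Traj3 (7.58 ± 0.76, adjusted p = 5.64e-05) and Traj2 (7.21 ± 1.19, adjusted p = 0.00193). The beta rows were Trbj1-4 (3.10 ± 0.28, edgeR adjusted p = 2.77e-05), Trbj1-1 (1.52 ± 0.40, adjusted p = 0.0306) and Trbj1-2 (1.499 ± 0.38, adjusted p = 0.0277). In OT-I cells Traj59, Traj60 and Traj26 led the alpha joining rows, each at 6.54 CPM or less, and Trbj1-1, Trbj1-2 and Trbj2-7 the beta ones. From naive cells to the groups of days 8 to 9, 11 of the 69 joining and diversity rows fell in each and 0 rose. Of all genes, 9.10% were called lower and 14.3% higher for the marker-high group, and 6.21% lower and 10.6% higher for the marker-low group. At days 20 to 21, 2 of the 69 were higher than in naive cells, Traj58 and Traj26, and 0 lower (11.1% of all genes higher, 6.86% lower). In GFP cells 16 of 70 were lower than in naive cells and 0 higher. Of all 18608 genes tested there, 2789 were called lower and 3268 higher. Trbj1-1 went from 58.6 to 77.7 CPM in naive to 9.40 to 15.5 CPM in marker-low cells (-2.43 ± 0.41, adjusted p = 0.00183).

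Rag1 and Rag2, which cut the segments, were at or below 0.0642 CPM in all 19 libraries, within the limit that a count of 0 allows. Dntt, which adds bases at the joins, stood at 101 to 146 CPM in naive cells, 11.9 to 23.0 CPM in culture and at most 12.5 CPM elsewhere. Dntt was lower than in naive cells at days 20 to 21 (-12.30 ± 2.18, edgeR adjusted p = 0.00155). The size of that difference is not precise. The 4 thymocyte markers, with Dntt among them, summed there to 0 to 0.0413 CPM, within the limit that a count of 0 allows. Dntt was also lower than in naive cells in marker-high (-6.77 ± 1.61, edgeR adjusted p = 0.00976) and in marker-low cells (-4.57 ± 1.44, adjusted p = 0.0462). Hmgb2, a chromatin protein that assists the recombinase and is abundant in dividing cells, was higher than in naive cells in those 3 groups and in GFP cells, by 1.32 to 4.24. Of the other recombination genes, Hmgb1 was also called higher in marker-high and GFP cells, and among genes of DNA end joining Prkdc was lower in marker-high, Lig4 in marker-low and Nhej1 in GFP cells. In all, 10 of the 13 genes of this list were tested.

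The cell states against which the segments were read differed in activation genes as follows. At days 20 to 21 Pdcd1, Cd44, Tox and Gzmb, genes of activated or exhausted cells, were higher than in naive cells and Lef1, Tcf7, Ccr7 and Il7r, genes of naive cells, lower. In marker-high cells these 8 were called in the same directions and Nr4a1, a gene induced by receptor signals, was higher. In marker-low cells Pdcd1, Cd44, Gzmb and Nr4a1 were higher and Ccr7 and Il7r lower than in naive cells. In GFP cells Cd44, Gzmb and the proliferation gene Mki67 were higher and Lef1, Tox, Tcf7, Ccr7 and Nr4a1 lower. Of the 9 gamma and delta variable rows tested ex vivo, 2 were higher and 0 lower at days 20 to 21 than in naive cells. Marker-high cells had 2 higher and 2 lower, and marker-low cells 1 higher and 3 lower. Of all genes, 11.1, 14.3 and 10.6% were called higher in these 3 groups and 6.86, 9.10 and 6.21% lower. The 348 immunoglobulin variable rows summed to 0.316 to 184 CPM, and 143 of them had no count in any library.

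Part of the mouse alpha locus is duplicated, and rows of the copies carry the letter d or n. Of the 40 rows with a d, 19 had no count in 19 libraries, and of the 34 with an n, 21 had none, against 1 of the 56 alpha rows without a letter. Of 40 alpha rows whose 50-base windows all occur in another gene, 32 had no count and 0 reached 1 CPM, with 0.153 CPM as the highest value. Of 78 alpha rows with some shared windows 42 reached 1 CPM, and of 10 without shared windows 7 did. Of the beta rows 28 of 35 share no window, and all 13 that GENCODE lists as pseudogenes stayed at or below 0.145 CPM, 8 of them with no count. In all, 116 of 165 rows had a count, 62 reached 1 CPM, 17 reached 10 CPM and 4 reached 100 CPM in a library, namely Trbv29, Trav9-2, Trbv12-1 and Trbv12-2.

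**Figure D5:**
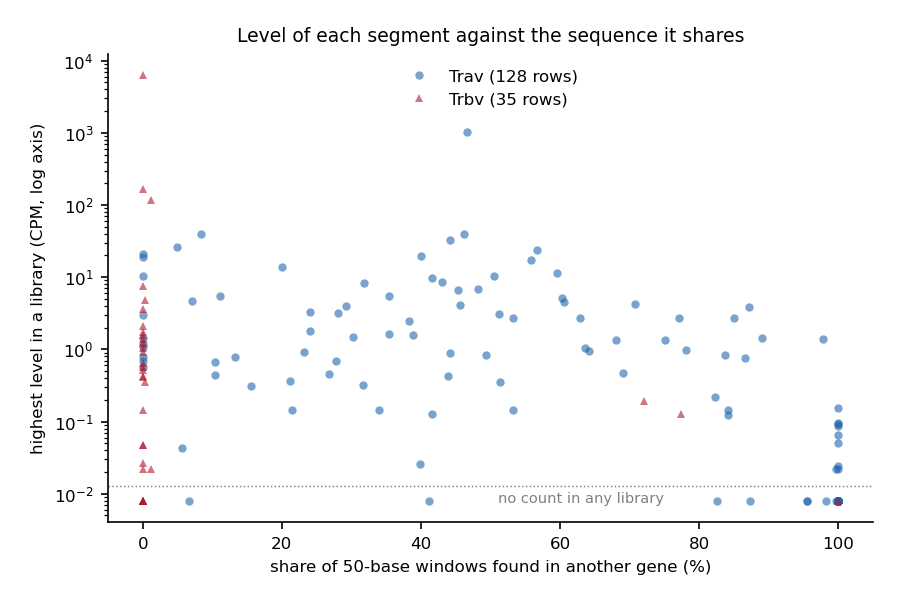
Highest CPM of each of 163 segments in any library (log axis; rows without a count are placed under the dotted line) against the share of its 50-base windows that another gene also holds. Alpha rows with all windows shared stay at or below 0.153 CPM, and Trav9-2 reaches 1025 CPM with 46.7% of windows shared.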

How the data were processed

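Gene counts were measured by RNA-seq in 19 libraries (SMART-Seq cDNA, paired-end reads of 50 bases, per the labels' protocols). The authors deposited raw counts per gene name: per the file headers, featureCounts 1.6.2 ran in paired-end mode on GENCODE M17 (GRCm38.p6), with no option for strand or for reads that map to several places, and per the submitters' processing notes reads were aligned with STAR. The deposited exon lengths gave CPM per kilobase.

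From these counts, groups were compared with edgeR 4.0.16 in R 4.3.3 (TMM scaling, filterByExpr, robust quasi-likelihood F test, Benjamini-Hochberg over all genes tested, called under 0.05). The 15 ex vivo libraries, the 4 cultured libraries and, for GFP against naive, all 19 were each fitted together, with 1 term per group. Standard errors were worked back from F. The fit was also run on simulated counts, and no result here rests on that run. Only genes above a minimum mean count were changed in it, so it does not cover rows of few counts. Alternatives were DESeq2 1.42.0, its size factors in edgeR, library totals, no filter, a minimum count of 50, a replicate block and leaving out each library. Replicates of a group differed by more than counting noise, with a chi-square of 29.9 to 485 per degree of freedom.

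Named segments were the 5 Trav and 5 Trbv rows with the highest CPM per kilobase in each group and all called rows, beside the receptor segments and the receptor constant and CD3, joining, recombination, activation and other-receptor lists. The members and lists were chosen with earlier results of these data known. Positions and sequences came from the count tables, GENCODE M21 transcripts (163 of 165 rows matched) and RefSeq names. One gene of the activation list is not reported here.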

Additional observations from a re-analysis of the deposited data

How the results depend on the processing

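Trbv29, Trav9-2, Trbv12-1, Trbv12-2 and Trbv13-1 were called between SV40-I and OT-I cells under all 13 alternatives, and Trav15-1-dv6-1 and Trav13-5 between marker-high and naive cells under all 12. Other calls were less stable. For days 20 to 21 against naive cells, Trav10n kept its call in 3 of 12 alternatives, and Trav14d-3-dv8 and Trav8d-2 kept theirs in 11 of 12. The remaining calls lay between these shares, and all 84 lost calls fell on these less stable ones. A tally over single segments and levels also held the calls that never changed and segments not called to begin with. There, 444 alternative values kept direction and side, 84 lost the call and 9 changed sign. Further, 1 gained the call and 3 levels moved by over 1 SD. DESeq2 called 5 segments in marker-high against naive cells (31.5% of all genes), 9 in marker-low against naive (27.5%) and 6 in marker-high against marker-low (4.56%). It called 11 in days 20 to 21 against marker-high (14.8%), 11 in SV40-I against OT-I (15.5%) and 14 in GFP against naive cells (39.5%). With DESeq2, Trbv12-2 passed at days 20 to 21 against naive cells (-1.36, adjusted p = 0.0367, range over its alternatives 0.0367 to 0.362). Scaling by library totals left 2 calls in GFP against naive cells (32.5% of all genes). Without a filter marker-low against naive cells gave 3 calls (7.68% of all genes). The stricter filter gave 2 calls for days 20 to 21 against naive (23.5% of all genes) and 1 against marker-high cells (8.15%).

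Leaving out each library in turn gave 3 to 7 calls for days 20 to 21 against naive cells (11.9 to 13.5% of all genes). It gave 2 to 3 for marker-high (13.8 to 20.5%) and 1 to 3 for marker-low against naive cells (8.06 to 12.5%). Marker-high against marker-low gave 0 to 1 (0.218 to 0.915%). Days 20 to 21 against marker-high gave 0 to 4 (1.78 to 9.56%) and SV40-I against OT-I 5 to 7 (5.01 to 6.4%). For GFP against naive cells, leaving out a naive library gave 2 to 5 calls (27.5 to 28.9%). Fits without a GFP library, which leave that group without replicates, are not in this range. The fit without GFP library 1 is described above. Alternatives chosen after seeing the data gave 1 call for days 20 to 21 against naive cells without the libraries rich in hepatocyte transcripts (10.5% of all genes). Without the macrophage-rich library, marker-low against naive cells gave 3 calls (12.5% of all genes), also a choice made after seeing the data. The sign of Trbv29 turned without naive library 2 at days 20 to 21 (values without a library ran from -0.49 to 0.42) and in marker-low cells (-0.67 to 0.26), both against naive cells. That of Trav9-2 turned without naive library 2 in marker-high (-0.90 to 0.046) and marker-low cells (-0.64 to 0.37), without the macrophage-rich marker-low library 2 against naive cells (0.081), without marker-low library 1 in marker-high against marker-low cells (-0.70 to 0.078), and in TOX-GFP against GFP without GFP library 2 or TOX-GFP library 1 (0.088), with a range of -0.85 to 0.25. The cause was not tested.

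With the replicate number as a block, 3 segments were called for days 20 to 21 against naive cells (17.5% of all genes). Days 20 to 21 against marker-high gave 1 (5.21%). Marker-high against naive gave 3 (23.3%), with Trav16d-dv11 higher, in place of Trbv12-2 with an edgeR adjusted p of 0.059. The block gave 5 for marker-low against naive (16.7%), 5 for SV40-I against OT-I (8.72%) and 6 for GFP against naive cells (31.6%). It gave 0 for marker-high against marker-low (0.878%) and for TOX-GFP against GFP (0%). The numbers did not pair the libraries: same-numbered libraries correlated at -0.218 to 0.273 in their deviations from group means, 5 of 30 pairs over 0.1, against 8 of 60 other pairs. With 2 or 3 libraries per group and floors of 0.0554 to 0.0811 CPM, segments under 1 CPM could not be compared closely.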
